A study of Mus musculus with 32 samples.

Results

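Cadherins and protocadherins were followed in the frontal cortex (FCtx) of ethanol-treated and control mice. The members are all probes of an expression array whose gene symbol starts with Cdh and a digit, or with Pcdh and a digit or the letters a, b or g, without Pcdh21, and they number 97 probes for 78 genes, of 25697 probes and 18138 symbols on the array. The array was the Illumina MouseRef-8 v2.0 bead chip, which reads each transcript with probes 50 bases long. The study profiled 32 mice, 1 array each. The 20 ethanol-treated mice had drunk 20% ethanol for 20 days in a limited-access drinking test, and the 12 controls had no ethanol. All mice were C57BL/6J x FVB/NJ F1 hybrids, which the methods describe as females from both directions of that cross while the labels name 1 direction, and the study places treatment in early adulthood. Intake was voluntary, so the dose differed between mice.

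The arrays lay on 4 chips of 8 positions, lettered A to H. Only ethanol-treated mice were on chips 1 and 2, 8 on each, and only controls, 8 of them, on chip 4. Chip 3 was shared, with 4 ethanol-treated mice at its odd positions (A, C, E, G), alternating with 4 controls at its even ones (B, D, F, H). On chip 3, treatment and position therefore cannot be told apart, and outside chip 3 treatment and chip cannot be told apart. Between 9480 and 11544 probes were detected per array, with the lowest number in control mouse C66, and 19 to 31 of them were members. Of the genes that mark cortical projection neurons, Slc17a7, Tbr1, Fezf2 and Neurod2 were detected on all 32 arrays, and Neurod6 on 0.

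Cadherins are calcium-dependent adhesion proteins that span the cell membrane and bind like molecules on the neighbouring cell. Classical cadherins of types I and II hold synapses and cell layers together through catenins, which tie them to actin, whereas Cdh13 (T-cadherin) has no cytoplasmic part and sits on a lipid anchor. Protocadherins are the larger group: the delta-1 and delta-2 genes stand alone and guide axons and circuits, and the alpha, beta and gamma genes lie in a cluster in which each neuron uses its own choice of promoters, giving cells a surface identity.

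The probes on which the main results turn are shown by 30 of their bases, since several read each of Cdh13, Cdh8 and Pcdh10. The differences at the Pcdh10 probes were not all in the same direction. The bases are the first of each probe for Cdh13, Cdh22, Pcdh17 and Pcdh10 and the last for Cdh8, and capitals mark bases of the Cdh8 probe 3 that lie outside the run it shares with Cdh8 probe 2.
Cdh13 5′ probe: agtgttacacatccaccagcctgccgaatt
Cdh13 3′ probe: ctggaagatctccaaaatcaacaacaccca
Cdh22: gagagctacctggagaccaactgcattgtt
Pcdh17: gtggtggactactagctgacatcacaggct
Pcdh10 probe 1: gccatcgtcaccgggtacagcgaccagcaa
Pcdh10 probe 2: ctctttgcatctgtcccaggcattaataaa
Pcdh10 probe 3: gagggcctctggagggaaaatggagcagtg
Cdh8 probe 2: aactctactctgttggtgaaagtgacaaag
Cdh8 probe 3: tggtgaaagtgacaaagAAACTTGACAGTG

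The Cdh13 probes start at bases 201 and 1992 of the same RefSeq transcript. The Pcdh10 probes 2 and 3 start at bases 3889 and 4475 of 1 transcript, and probe 1 was designed on another Pcdh10 transcript, at base 3418. The Cdh22 probe was annotated to the minus strand at chr2:164937279-164937328, the Pcdh17 probe to the plus strand at chr14:84933798-84933847 and the Cdh8 probe 2 to the minus strand at chr8:101554472-101554521, in a genome build that is not given in the sources used here. None of the 19 member probes that were tested shared a run of 20 bases with a probe of another gene on the array.

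Most members were not detected. A probe was called detected on an array when its detection p-value, which sets it against negative control probes, was below 0.01, and it was tested when this held on at least 24 of the 32 arrays. Of the 97 probes 19 were tested (19.6%, against 39.6% of all probes), and they stand for 15 genes. On no array were 52 probes detected (53.6%, against 43.5% of all probes), 26 were detected on some but on too few arrays, and 14 of the tested probes were detected on every array. Detection depends on the probe as well as on the transcript, so a probe below background does not show that its gene is silent.

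In the RefSeq gene table (GRCm38.p6) 51 of the 78 genes are on chromosome 18, which holds the protocadherin cluster, and 1 symbol (Pcdh24) had no match. All 19 gamma protocadherin probes failed the filter, none above 3 arrays (Pcdhga4). Of the 22 beta protocadherin probes 3 passed (Pcdhb3, Pcdhb7 and Pcdhb22) and 12 were detected on no array. Of the 9 alpha probes 2 passed, those named Pcdha6 and Pcdhac2. Among genes that stand alone, 4 of 7 delta-2 probes passed, 3 of Pcdh10 and 1 of Pcdh17, and 0 of 6 delta-1 probes. Among the cadherins 6 of 15 type II probes passed (Cdh6, Cdh7, Cdh8, Cdh12 and Cdh22), 1 of 7 type I probes (Cdh1, E-cadherin) and 2 of 9 other cadherin probes, both of Cdh13. The probe of Cdh2 (N-cadherin, a classical cadherin of synapses) was detected on 0 arrays.

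**Figure D1:**
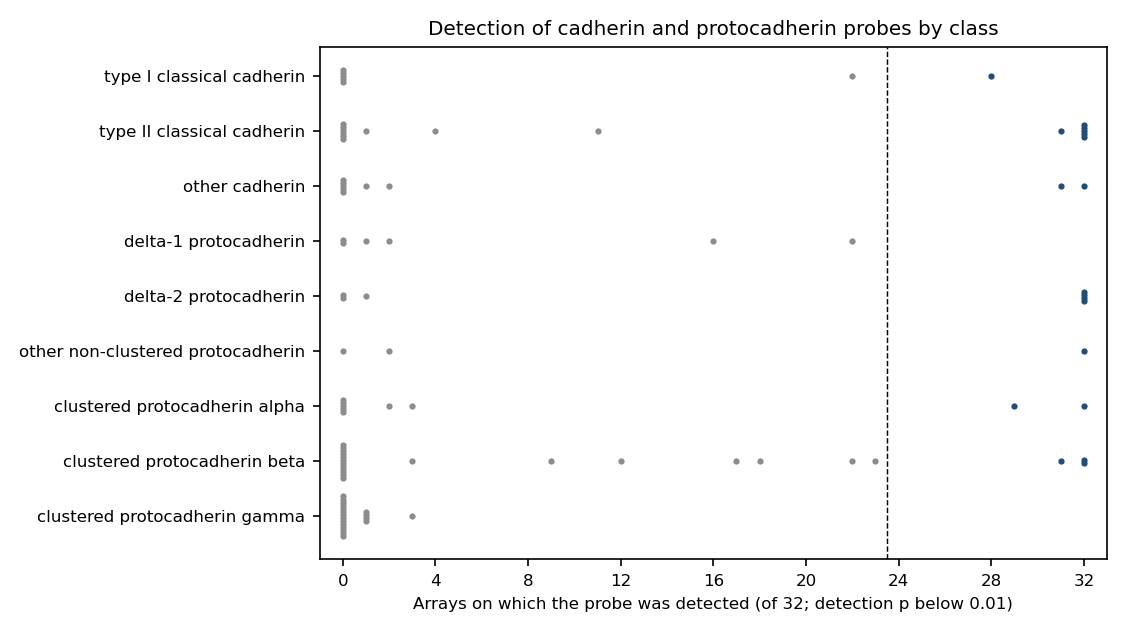
Number of the 32 arrays on which each of the 97 probes was detected (x axis), by class of cadherin or protocadherin (y axis), with 1 point per probe and the filter of 24 arrays as a dashed line. The 19 probes in blue passed the filter, all 19 gamma probes sit at 3 arrays or fewer, and the delta-1 probes end at 22.

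Just inside the filter were Cdh1 with 28 arrays and Pcdhac2 with 29. Just outside were Pcdhb12 with 23 and Cdh4 (R-cadherin), Pcdh1 and Pcdhb20 with 22 each. Cdh4 was detected in 17 of 20 ethanol-treated mice and 5 of 12 controls. It was detected on 3 of the 8 arrays of chip 4, and at 14 odd against 8 even positions. Pcdhb12 was detected in 14 ethanol-treated mice and 9 controls, and Pcdh1 and Pcdhb20 in 14 and 8 each. Arrays of chip 4, all controls, had the lowest median signal (161.4, against 177.7 to 188.5 elsewhere). They also had the fewest members detected (median 22.5, against 25 to 27). Their median of all probes detected was 10846, against 10889 to 11364. The part of this in the detection counts was not tested. Overlapping probes could differ in detection. Cdh8 probes 2 and 3 share a run of 37 bases, and probe 2 was detected on 32 arrays and probe 3 on 11.

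Ethanol-treated and control mice were then compared over all 32 arrays, after a variance-stabilizing transform and quantile normalization, with limma. Levels and differences are given on the resulting log2 scale, and FDR is the Benjamini-Hochberg value over all 10187 probes tested. At an FDR below 1%, 2 of the 19 member probes were called, Cdh13 upregulated and Cdh22 downregulated, beside 8.28% of all probes tested. Under a wider rule, a 1.1-fold change or more and an FDR below 10%, 4 were called, with Pcdh17 added upward and Pcdha6 downward, beside 14.6% of all probes. Of the 19 members 14 were higher and 5 lower in ethanol-treated mice, and of all probes 48.4% were higher. The median size of the difference was 0.059 for the members and 0.059 for all probes.

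Cdh13 was called at its 5′ probe and not at its 3′ probe. The 5′ probe ranged from 7.92 to 8.41 in ethanol-treated mice (median 8.16) and from 7.80 to 8.10 in controls (median 7.95). The groups overlapped, and 18 of 20 ethanol-treated mice were above the control median. The difference was 0.22 (SE 0.048, FDR 0.0018), a 1.16-fold change.

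The 3′ probe of Cdh13 ranged from 8.64 to 9.11 in ethanol-treated mice (median 8.92) and from 8.55 to 9.14 in controls (median 8.78). Its difference of 0.078 (95% interval -0.040 to 0.20, FDR 0.372) was within the spread between mice. A difference in response between the probes was not tested. On a background-corrected scale (normexp), which spreads low signals more, the 5′ difference was 0.61.

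Cdh22, a type II cadherin of brain, was downregulated. It ranged from 7.95 to 8.48 in ethanol-treated mice (median 8.18) and from 8.18 to 8.67 in controls (median 8.39), and 1 of 20 ethanol-treated mice was above the control median. The difference was -0.22 (SE 0.046, FDR 0.00125). It was -0.48 (FDR 0.00202) on the background-corrected scale and -0.17 (FDR 0.0217) with arrays scaled to a common median, which ended the call at 1%. In bulk tissue, fewer cells of a type and less RNA per cell cannot be told apart. The mean level over 7 tested markers of cortical projection neurons, of 10 symbols listed, was also lower, 9.28 to 9.43 in ethanol-treated mice against 9.34 to 9.54 in controls. The markers did not move together. Differences were -0.34 for Tbr1, -0.26 for Slc17a7, -0.16 for Fezf2, -0.070 for Cux2 and -0.049 for Cux1. Neurod2 (0.087) and Rorb (0.050) were higher. The part of this mean level in the Cdh22 difference was not tested.

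Pcdh17, a delta-2 protocadherin of synapses and axons, ranged from 9.33 to 10.34 in ethanol-treated mice (median 9.87) and from 9.24 to 10.27 in controls (median 9.60). The groups overlapped almost throughout. The difference was 0.23 (SE 0.095, FDR 0.0793), and the call was lost without any 1 of 15 arrays (ethanol-treated mice A3, A28, A29, A32, A34, A39, A46 and A47, and controls C55, C56, C62, C63, C64, C65 and C66), with an FDR of up to 0.167. The call was also lost with odd or even position in the fit, where the difference was 0.15 (FDR 0.209).

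The probe named Pcdha6 ranged from 9.67 to 10.24 in ethanol-treated mice (median 9.99) and from 10.01 to 10.26 in controls (median 10.11). The difference was -0.15 (SE 0.049, FDR 0.0266), and 4 of 20 ethanol-treated mice were above the control median. Without ethanol-treated mouse A32 the difference was -0.14, under 1.1-fold, which ended the call, and when arrays were scaled to a common median instead, the difference was -0.086 (FDR 0.464). This probe lies 7183 bases beyond the nearest of the other 8 alpha probes with a position and 219412 bases from the other Pcdha6 probe, which was detected on 0 arrays. All alpha protocadherin transcripts share constant exons at their 3′ end. Whether the probe reads them was not tested.

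**Figure D2:**
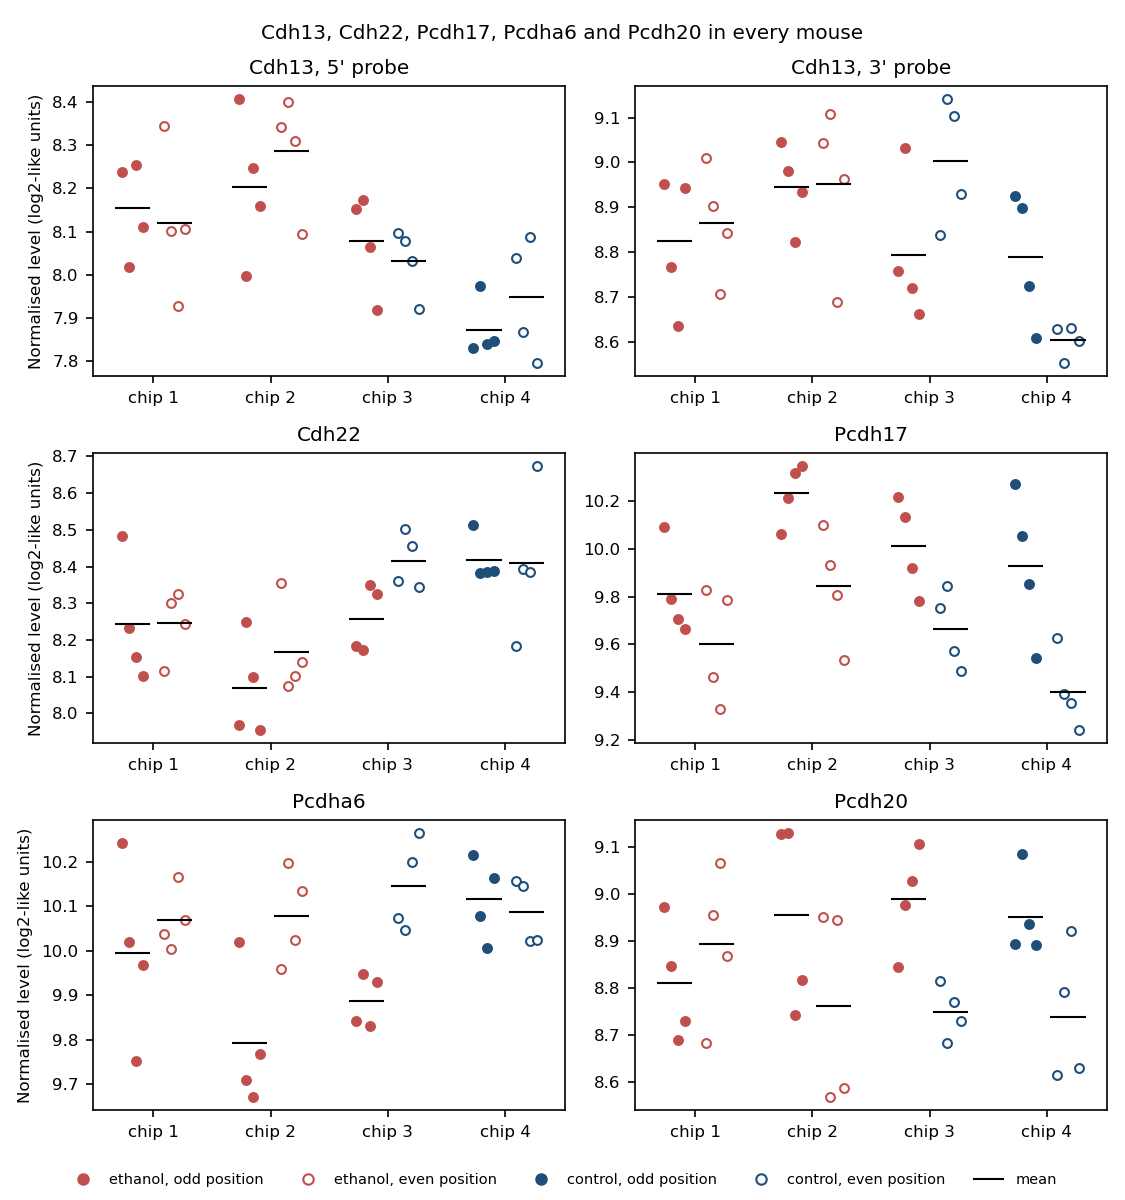
Normalised level (y axis, log2-like units) of Cdh13 at its 5′ and 3′ probes, Cdh22, Pcdh17, Pcdha6 and Pcdh20 in each of the 32 mice, by chip (x axis), with ethanol in red, controls in blue, odd positions filled, even positions open and lines at the means. Chip 4 controls have a median of 7.86 at the Cdh13 5′ probe, against 8.06 in chip 3 controls. Pcdh17 means are higher at odd than at even positions on all 4 chips. On chip 3 the odd positions hold the treated mice and the even ones the controls.

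Chip 3 is the only chip with both groups. There 5 of the 19 member probes were called at an FDR below 10%, beside 17.1% of all probes, and neither Cdh13 nor Cdh22 was among them. The groups of 4 did not overlap for 6 members, beside 15.2% of all probes. These were Cdh1, Cdh8 probe 2, Pcdh10 probe 1, Pcdh20, Pcdha6 and Pcdhb3.

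On chip 3 the Cdh13 5′ probe was at 8.15, 8.17, 8.07 and 7.92 in ethanol-treated mice and 8.10, 8.08, 8.03 and 7.92 in controls. The groups overlapped, with a difference of 0.046 (SE 0.068, FDR 0.722). The Cdh13 3′ probe was lower in ethanol-treated mice there, by a difference of -0.21 (SE 0.084, FDR 0.124). Cdh22 was at 8.18, 8.17, 8.35 and 8.33 in ethanol-treated mice and 8.36, 8.50, 8.46 and 8.34 in controls, a difference of -0.16 (SE 0.065, FDR 0.129) in the direction of all arrays.

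Pcdha6 was at 9.84, 9.95, 9.83 and 9.93 in ethanol-treated mice of chip 3 and 10.07, 10.05, 10.20 and 10.26 in controls. All 4 treated mice were below all 4 controls, with a difference of -0.26 (SE 0.065, FDR 0.0193). This probe was also lower at odd than at even positions of chips 1, 2 and 4, by -0.11 (SE 0.053, FDR 0.166). Ethanol-treated mice of chips 1 and 2 against controls of chip 4 differed by -0.22 (SE 0.092) at odd positions. At even positions they differed by -0.013 (SE 0.060). Pcdh17 was at 10.22, 10.13, 9.92 and 9.78 in ethanol-treated mice and 9.75, 9.84, 9.57 and 9.49 in controls, which overlapped, a difference of 0.35 (SE 0.094, FDR 0.0262). Pcdh20, a protocadherin outside the delta groups, was at 8.85, 8.98, 9.03 and 9.11 in ethanol-treated mice and 8.82, 8.68, 8.77 and 8.73 in controls. The Pcdh20 difference was 0.24 (SE 0.065, FDR 0.0288). Odd against even positions of chips 1, 2 and 4 differed in the same direction, by 0.11 (SE 0.063, FDR 0.268). Ethanol-treated mice of chips 1 and 2 against controls of chip 4 differed by 0.0093 (SE 0.069) at this probe. Cdh8 probe 2 rose by 0.24 (SE 0.07, FDR 0.0349) and Pcdh10 probe 1 fell by 0.36 (SE 0.069, FDR 0.0035).

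Ethanol-treated mice of chips 1 and 2 against the controls of chip 4 gave 4 called member probes, beside 31.9% of all probes. The Cdh13 5′ probe differed by 0.28 (SE 0.057, FDR 0.000715) and the 3′ probe by 0.20 (SE 0.058, FDR 0.0124). Cdh22 differed by -0.23 (SE 0.058, FDR 0.00449) and Cdh8 probe 1, designed on another Cdh8 transcript, by 0.16 (SE 0.053, FDR 0.0252). The test of the difference between this contrast and chip 3 called 2 member probes, beside 15.1% of all probes. The Cdh13 3′ probe differed between them by -0.41 (SE 0.11, FDR 0.0187) and Pcdh10 probe 1 by -0.40 (SE 0.13, FDR 0.0466). The controls alone show the gap at the Cdh13 3′ probe, with 8.84, 9.14, 9.10 and 8.93 on chip 3 and a mean of 8.60 ± 0.037 (SD, n = 4) at the even positions of chip 4.

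**Figure D3:**
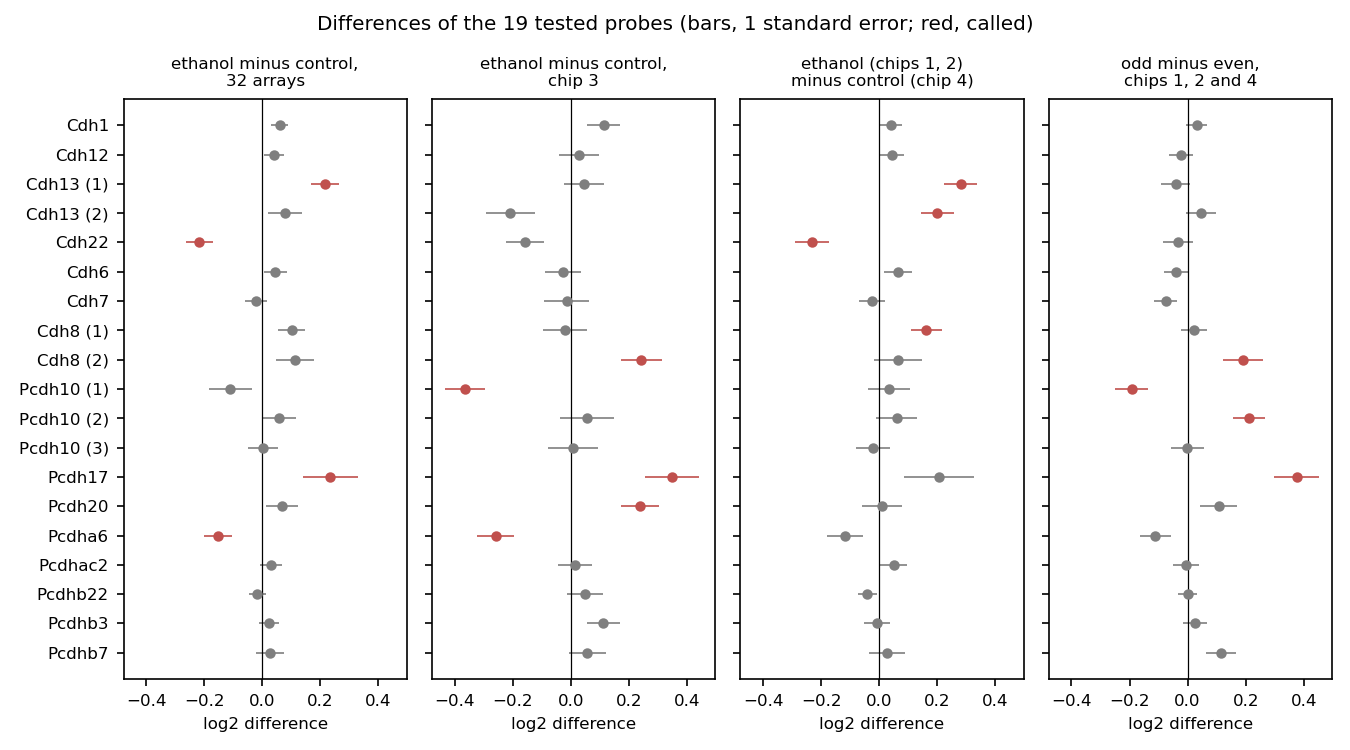
Difference (x axis, log2 scale) of the 19 tested probes (y axis) in 4 comparisons, with bars of 1 standard error and called probes in red; numbers in brackets order the probes of 1 gene by start, so Cdh13 (1) is the 5′ probe. The Cdh22 points lie left of 0 in all 3 ethanol comparisons, and the Pcdh17 difference between odd and even positions is at 0.38.

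Members also differed by position on the chip. Odd against even positions of chips 1, 2 and 4, where treatment is the same within a chip, gave 4 called member probes, beside 20.2% of all probes. Pcdh17 differed by 0.38 (SE 0.078, FDR 0.00283), Pcdh10 probe 2 by 0.21 (SE 0.056, FDR 0.0135), Cdh8 probe 2 by 0.19 (SE 0.07, FDR 0.0641) and Pcdh10 probe 1 by -0.19 (SE 0.058, FDR 0.0281). All 4 have the direction of the chip 3 difference, where the treated mice are at the odd positions. Pcdh10 probe 2 was not called on chip 3, with a difference of 0.056 (SE 0.092, FDR 0.747).

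Pcdh17 means on chip 4, all controls, were 9.93 ± 0.31 (SD, n = 4) at odd positions and 9.40 ± 0.16 (SD, n = 4) at even positions. On chip 1 the means were 9.81 ± 0.19 at odd and 9.60 ± 0.24 at even positions, and on chip 2 they were 10.23 ± 0.13 and 9.84 ± 0.24 (SD, n = 4 each). The odd positions had the higher mean on each of these chips. Pcdh17 also differed between chips 2 and 1, which both held ethanol-treated mice, by 0.33 (SE 0.085, FDR 0.0483); it was the only member called there, beside 3.89% of all probes. Olfactory bulb markers moved with position too: the mean level over 6 tested genes, of 11 symbols listed, averaged 8.60 at odd and 8.24 at even positions of chips 1, 2 and 4, and ranged from 8.52 to 8.76 in ethanol-treated mice and 7.88 to 8.33 in controls of chip 3. The 6 genes include Pcdh21, which was left out of the members. It differed most by position, by 0.88, against 0.097 (Nmb) to 0.48 (Trh) for the others. The probes used for these 6 genes were detected on 24 (Sp8) to 31 (Pcdh21) arrays. Of the other symbols listed, Omp was detected on 0 arrays, Tbx21 and Shisa3 on 1 each and Eomes on 8. Other marker lists also differed between odd and even positions, with medians of -0.15 for oligodendrocytes and 0.18 for choroid plexus (1 tested gene). The part of any of these markers in the Pcdh17 values was not tested.

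The ethanol differences at the 3 Pcdh10 probes were not all in the same direction, and none was called over all arrays. A difference in response between these probes was not tested. Pcdh10 is a delta-2 protocadherin that recruits actin regulators. Over all arrays the ethanol differences were -0.11 (SE 0.074, FDR 0.315) at probe 1, 0.057 (SE 0.059, FDR 0.539) at probe 2 and 0.0021 (SE 0.052, FDR 0.985) at probe 3. Probe 1 was at 9.29, 9.15, 9.04 and 9.23 in ethanol-treated mice of chip 3 and at 9.59, 9.56, 9.60 and 9.40 in controls, with no overlap. In the controls of chip 4 its means were 9.01 ± 0.093 (SD, n = 4) at odd and 9.10 ± 0.14 (SD, n = 4) at even positions.

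**Figure D4:**
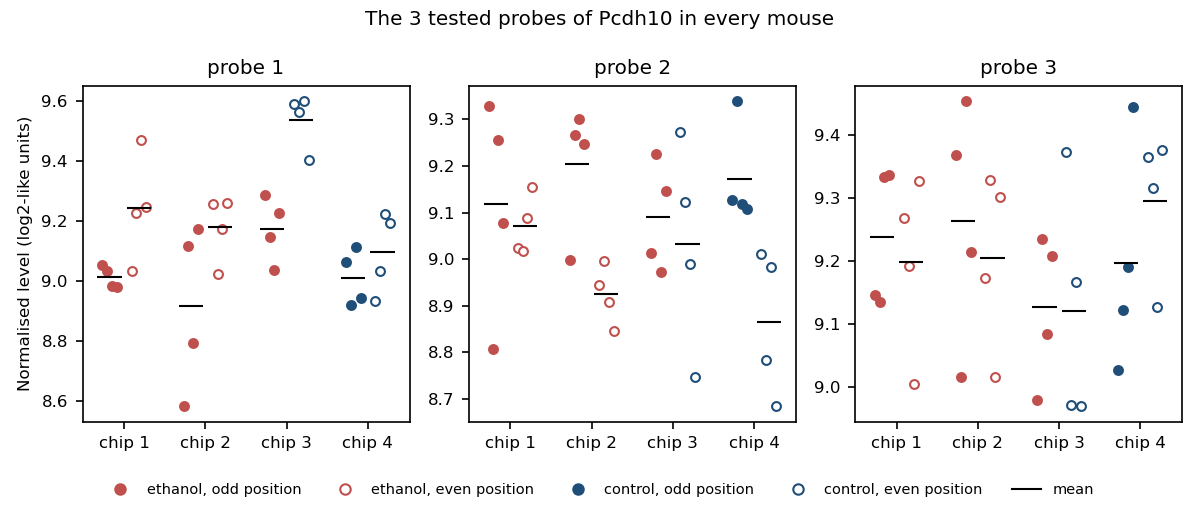
Normalised level (y axis, log2-like units) of the 3 tested Pcdh10 probes in each of the 32 mice, by chip (x axis), with ethanol in red, controls in blue, odd positions filled, even positions open and lines at the means. Probe 1 means are lower and probe 2 means higher at odd than at even positions on all 4 chips. On chip 3 the odd positions hold the treated mice and the even ones the controls. The chip 3 controls stand highest at probe 1, from 9.40 to 9.60.

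With chip and odd or even position both in the fit, no member was called with limma at an FDR below 10%, beside 0.0491% of all probes. In the same limma fit 1 member had an unadjusted p below 0.05, beside 9.63% of all probes. In that fit the Cdh13 5′ probe differed by 0.087 (SE 0.099, FDR 0.834), the Cdh13 3′ probe by -0.26 (SE 0.11, FDR 0.433), Cdh22 by -0.13 (SE 0.098, FDR 0.734), Pcdha6 by -0.15 (SE 0.10, FDR 0.689) and Pcdh17 by -0.027 (SE 0.15, FDR 0.976). The Cdh13 5′ probe, Cdh22 and Pcdha6 kept their sign and Pcdh17 did not. The standard error of the Cdh13 5′ probe was 0.099 in this fit, against 0.048 over all arrays.

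The other tested members gave no call over all arrays on the main scale. Among type II cadherins the differences were 0.10 (SE 0.047) and 0.11 (SE 0.065) at Cdh8 probes 1 and 2, 0.045 (SE 0.039) for Cdh6, 0.041 (SE 0.035) for Cdh12 and -0.021 (SE 0.039) for Cdh7. Cdh1, the type I member, differed by 0.059 (SE 0.029, FDR 0.157), and by 0.22 (FDR 0.0867) on the background-corrected scale, where it was called under the wider rule. Among clustered protocadherins Pcdhac2 differed by 0.031 (SE 0.037), Pcdhb7 by 0.027 (SE 0.048), Pcdhb3 by 0.022 (SE 0.035) and Pcdhb22 by -0.017 (SE 0.028), so the beta probes stayed within 0.03 of 0. Pcdh20 differed by 0.068 (SE 0.056).

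Pcdh9, a delta-1 protocadherin, was below the filter. It was detected in 13 of 20 ethanol-treated mice and 3 of 12 controls. By chip, it was detected on 3 of 8 arrays of chip 1, 7 of 8 of chip 2 and 0 of 8 of chip 4, whereas on chip 3 it was detected in 3 of 4 ethanol-treated mice and 3 of 4 controls. It was not tested, and no difference is given for a probe below background in most controls. Arrays of chip 4 had the lowest median signal, and the part of this in the Pcdh9 counts was not tested.

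Genes that act with cadherins were read from lists, to be set beside the 14.6% of all probes called under the wider rule. Of 7 tested catenins and cytoplasmic partners 0 rose and 1 fell under the wider rule: Ctnnbip1, an inhibitor of beta-catenin and TCF binding, fell by 0.19 (SE 0.039, FDR 0.0011), while Ctnnb1 (beta-catenin) differed by 0.0026 (SE 0.043, FDR 0.977). Of 4 other cadherin-repeat proteins 0 rose and 1 fell, Clstn1 (calsyntenin-1) by 0.15 (SE 0.061, FDR 0.0781). Of 9 protocadherin effectors 0 rose and 0 fell. Of 8 genes that control the clustered protocadherins 1 rose and 0 fell, the cohesin subunit Stag2 by 0.19 (SE 0.053, FDR 0.0105), and Ctcf, which loops their promoters to enhancers, differed by 0.10 (SE 0.043, FDR 0.0913), under 1.1-fold. With chip and position in the fit the differences were -0.18 for Ctnnbip1 (FDR 0.517), -0.12 for Clstn1 (FDR 0.741) and 0.16 for Stag2 (FDR 0.59).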

How the data were processed

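Total RNA of 32 frontal cortex samples was labelled and hybridised to Illumina MouseRef-8 v2.0 chips. The deposited intensity is the mean bead signal per probe, not normalised; the authors also deposited, per the file headers, a detection p-value, the bead standard error and the number of beads (score) per probe. The submitters' processing notes name lumi and limma. The genome build of the probe positions is not given in the sources used here.

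The intensity values were transformed with a variance-stabilizing transform written after that of lumi, which was not installed, and quantile normalised. A probe was tested if 24 or more of the 32 arrays (75%) had a detection p-value under 0.01, with limma 3.58.1 in R 4.3.3, with Benjamini-Hochberg adjustment over all 10187. Calls were an FDR below 1%, or below 10% with a 1.1-fold change; comparisons of chips and positions used 10%. The pipeline was tested on simulated data. Figures were drawn with matplotlib.

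Groups and mouse numbers came from the sample labels, and chip and position from the array names. Genes were named by a rule: members called, the 2 brightest of each class, Cdh13, Cdh22, Pcdh17 and Pcdh9, and partner genes; a partner list gives each gene by 1 probe. The result of 1 partner list is not reported here. The members and lists were chosen with earlier results of these data known. Mice are separate animals, and the number of arrays limits the precision.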

Additional observations from a re-analysis of the deposited data

Results flagged for a closer look

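Within chip and treatment groups, 3 of 95 groups held a mouse set apart by Dixon's ratio, the gap to the nearest other mouse divided by the range of the group. In these the ratio was over its 95% critical value, which chance gives in about 1 in 20 groups. These were Cdh7 in ethanol-treated mouse A46 of chip 3 (8.45), Cdh8 probe 2 in control C55 of chip 3 (8.56) and Cdh8 probe 1 in ethanol-treated mouse A50 of chip 3 (8.61).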

How the results depend on the processing

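Cdh13 and Cdh22 were called at an FDR below 1% in all 32 fits that left out 1 array, so that count was 2 throughout. The count at an FDR below 10% with a 1.1-fold change was 2 to 4, with 2 without ethanol-treated mouse A32, and the chip 3 count was 5 to 6. The 1% count was 3 with all probes or a detection p-value below 0.05 (Pcdh9 added, a probe below background in most controls), 1 with median scaling (Cdh13, with Cdh22 lost), 1 with only probes detected on all arrays, and 0 with chip as a fixed or random block or with chip and odd or even position. The 10% count was 5 with normexp (Cdh1 added) and 5 at a detection p-value below 0.05 (Pcdh9 added), 2 with median scaling, 2 with odd or even position or position A to H as a covariate, 1 with chip as a fixed block (Pcdh10 probe 1) and 0 with chip and position. Between chips 1 and 2 the count was 0 with normexp and 4 with median scaling. At a detection p-value below 0.05, 29 members were detected often enough. For most of these settings the share of all probes called or detected is not given here. The counts therefore show which members passed and are no result about the members as a group. Leaving out single arrays other than C66 from the comparison of all arrays, and the other transforms and scalings for the comparison of chips 1 and 2 and for the test of chip 3 against the other chips, were chosen after seeing the data.

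The direction turned in 15 of 242 values. With median scaling these were Cdh7 (0.022) and Pcdhb22 (0.0086). With chip as a fixed block, where the difference is that of chip 3 alone, they were the Cdh13 3′ probe (-0.21), Cdh6 (-0.028), Cdh8 probe 1 (-0.020) and Pcdhb22 (0.048). With chip and position they were the Cdh13 3′ probe (-0.26), Cdh7 (0.061), Cdh8 probe 1 (-0.041), Pcdh10 probe 2 (-0.15), Pcdh17 (-0.027), Pcdhb22 (0.047) and Pcdhb7 (-0.056). With array weights it was Pcdh10 probe 3 (-0.00092), and without control C66 it was Pcdhb7 (-0.0096). Of the others 209 kept their direction and side of the threshold, 16 lost the call and 2 gained it. The cause was not tested. Median scaling moved the median difference of all probes from -0.0032 to 0.042, and 86.1% of calls (1008 higher, 163 lower) were then higher in ethanol-treated mice, against 51.4% (766 and 724) with quantile normalization. No paired analysis was possible because the groups share no mouse numbers.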
